A study of Mus musculus with 8 samples.

Results

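Homologous recombination copies an intact sister chromatid to mend a broken one, and the Fanconi anaemia pathway unhooks crosslinked strands at stalled replication forks and hands the break to the recombination proteins. The 37 genes described here encode the proteins that trim broken ends, the BRCA proteins that load the recombinase onto single-stranded DNA, the paralogues and motor proteins that work with it, the helicases and nucleases that take joined chromosomes apart, and the Fanconi proteins. They were taken from a fixed list by gene symbol, and all 37 of 37 were found among the 57010 genes of the deposited table. Mre11 is spelled Mre11a there.

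RNA was sequenced from mouse embryonic stem cells (lines grown in culture that keep the capacity of the inner cell mass) in 4 groups of 2 libraries each. HSVTK GANC and HSVTK DMSO are cells with a 2C::HSVTK reporter, which was built so that the nucleoside analogue ganciclovir (GANC) kills cells in a state resembling the early 2-cell embryo (2C-like cells), given either GANC or the solvent DMSO. Control GANC and Control DMSO are cells whose group label is control, given the same agents. The labels state neither dose, duration, number of clones nor what the Control cells carry, and the line was built to ask what loss of 2C-like cells does to genome stability.

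Embryonic stem cells divide quickly and spend much of their cycle copying DNA, and they are known for relying on recombination to repair breaks at replication forks. End resection creates the single-stranded tail on which the recombinase assembles, and proteins such as 53BP1 (Trp53bp1) and shieldin (Shld1, Shld2, Shld3 with Mad2l2) hold resection back. In the Fanconi pathway a core complex with the ligase Fancl and the conjugating enzyme Ube2t attaches ubiquitin to the pair Fancd2 and Fanci.

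Each library held 29704460 to 34184475 counts. The low-count filter left 17976 genes, all 37 members among them. Pou5f1, which defines these stem cells, lay at 582 to 702 CPM (counts scaled to a common library size, with TMM factors for composition) in the 8 libraries. Other stem cell markers were less even. Of 12 embryonic stem cell markers, 0 were called higher and 5 lower in HSVTK GANC than in HSVTK DMSO (41.7%). In HSVTK DMSO 7 were higher and 1 lower than in Control DMSO (66.7%). The shares of all tested genes were 28.5% and 33.7%. Tdgf1 lay at 1290 and 1320 CPM in HSVTK DMSO and at 558 to 849 CPM in the other 6 libraries. Of 11 fibroblast and feeder markers, Col1a1 lay at 0.4 to 0.995 CPM, and Col1a2, Col3a1, Acta2, Postn, Lum, Dcn and Twist2 had at most 13 counts in any library. Thy1 (7.76 to 17.1 CPM), Vim (216 to 285 CPM) and Fn1 (457 to 630 CPM), which are not restricted to fibroblasts, were higher, and the list summed to 754.9 and 736.8 CPM in HSVTK GANC, 883.1 and 874.5 CPM in HSVTK DMSO, 875.2 and 864.7 CPM in Control GANC and 758.2 and 751.9 CPM in Control DMSO. Summed over a list of 2C-like genes, levels were 82.25 and 85.79 CPM in the libraries labelled HSVTK GANC, 41.56 and 39.98 CPM in those labelled HSVTK DMSO, 38.07 and 33.1 CPM in Control GANC and 41.24 and 42.02 CPM in Control DMSO. Of the 13 tested genes of that list, 9 were called higher and 0 lower in HSVTK GANC than in HSVTK DMSO (69.2%, against 28.5% of all tested genes). That is the opposite of the depletion the reporter was built for, so GANC and DMSO name the libraries by their labels throughout. Mitochondrial genes took 3.561 and 3.451% of counts in HSVTK GANC and 2.875 to 3.174% in the other 6 libraries. Primitive endoderm markers summed to 284.7 and 263.5 CPM in HSVTK GANC and 237.8 and 238.2 CPM in HSVTK DMSO, against 186.7 and 206.9 CPM in Control GANC and 197.8 and 187.5 CPM in Control DMSO. Sparc and Lama1 carried most of that sum. Between HSVTK GANC and HSVTK DMSO 3 of the 10 markers were called higher and 1 lower with a median of -0.21 (40%, against 28.5% of all tested genes). Between HSVTK GANC and Control GANC 7 were higher and 0 lower with a median of 1.13 (70%, against 26.1%). The part of these shifts in the results below was not tested. In bulk RNA, fewer cells of a kind and less RNA per cell cannot be told apart.

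The members were expressed at low to moderate levels. Per length, as deposited FPKM (a count scaled for gene length and library size), their means over the 8 libraries ran between 1.05 for Fancf and 17.1 for Eme1 with a median of 5.63, with 6 members under 2 FPKM and 10 over 10 FPKM. The highest were the nuclease subunit Eme1, the resection nuclease Dna2 at 13.3 FPKM, the end-binding nuclease Mre11a at 13.2 FPKM and Brca1 at 12.9 FPKM. The lowest after Fancf were the core subunit Fancc at 1.42 FPKM, the crosslink nuclease Fan1 at 1.5 FPKM and the helicase Wrn at 1.60 FPKM. Replicates lay close together. The median absolute difference between both libraries of a group on the log2 scale was 0.092 in HSVTK GANC, 0.077 in HSVTK DMSO, 0.096 in Control GANC and 0.086 in Control DMSO, against 0.129 to 0.167 over all tested genes. All tested genes include some with a mean below 1 CPM, which no member had. No such difference was computed without them.

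**Figure D1:**
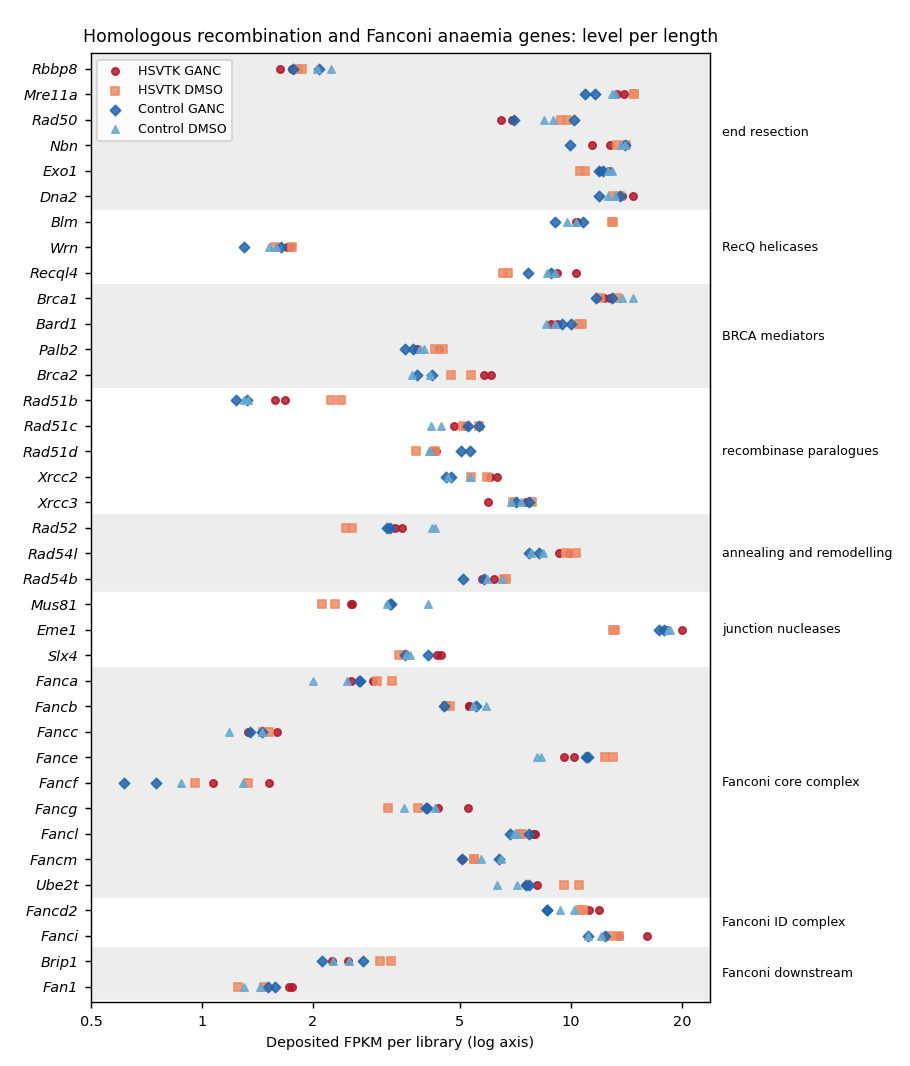
Deposited FPKM of each member (rows, grouped by role) in each of the 8 libraries (points, coloured by group) on a logarithmic axis. The members span 1.05 FPKM (mean of Fancf) to 17.1 FPKM (mean of Eme1), and the groups differ far less than the genes do.

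A gene was called where its Benjamini-Hochberg adjusted p over all tested genes was below 0.05 in edgeR's quasi-likelihood test. In the HSVTK cells GANC came with 6 members higher and 7 lower than DMSO, together 13 of 37 (35.1%). Over all tested genes 28.5% were called in this comparison (13.3% higher and 15.2% lower), and 35.4% of those with a mean of at least 1 CPM, a limit every member passed. The median log2 fold change of the members was -0.05, against 0.00874 over all genes. The members thus moved in both directions and about as often as genes with at least 1 CPM in general. No called change of a member in any comparison between groups reached 2-fold. The largest was 0.88 on the log2 scale.

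End resection opens the repair. The MRN complex, made of the nuclease Mre11a, the ATPase Rad50 that tethers the ends and the adaptor Nbn, starts it with Rbbp8 (CtIP), and Exo1 and Dna2 extend it. Rad50 had 33.9 and 36.2 CPM in HSVTK GANC, 52.5 and 50.6 CPM in HSVTK DMSO, 55.3 and 38.3 CPM in Control GANC and 46.4 and 48.9 CPM in Control DMSO. Both HSVTK GANC libraries lay below the other 6. In the HSVTK cells Rad50 fell by 0.56 ± 0.11 (log2 fold change ± SE, edgeR adjusted p = 0.000235), the deepest fall of the members in this comparison. The value in Control cells was -0.02 ± 0.11, and the difference of both responses was -0.53 ± 0.15 (edgeR adjusted p = 0.00935). Against Control GANC it was lower by -0.42 ± 0.11 (edgeR adjusted p = 0.00426). That last call and the difference were lost without Control GANC replicate 1 (0.31 and 0.117), with DESeq2 (0.0954 and 0.128) and with limma (0.163 and 0.166 with a pseudocount of 1 FPKM, 0.153 and 0.157 with 0.1 FPKM).

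Exo1, the exonuclease of long-range resection, had 98.6 and 104 CPM in HSVTK GANC, 91.7 and 89.5 CPM in HSVTK DMSO, 103 and 102 CPM in Control GANC and 108 and 111 CPM in Control DMSO. Its HSVTK DMSO libraries were the lowest of the 8. It was lower in HSVTK DMSO than in Control DMSO by -0.27 ± 0.06 (edgeR adjusted p = 0.00149), and the difference of drug responses was 0.26 ± 0.09 (edgeR adjusted p = 0.0368), a call kept in 1 of 8 fits that leave out a library, the one without HSVTK GANC replicate 1 (0.0599 to 0.193 in the other fits), and lost without the low-count filter (0.11). Mre11a had 76.7 and 80.2 CPM in HSVTK GANC, 87.7 and 87.4 CPM in HSVTK DMSO, 69.2 and 65.7 CPM in Control GANC and 77.9 and 79.5 CPM in Control DMSO. Control GANC was the lowest group and HSVTK DMSO the highest. Mre11a fell by 0.22 ± 0.07 with GANC in Control cells (edgeR adjusted p = 0.043) and was higher by 0.22 ± 0.07 in HSVTK GANC than in Control GANC (edgeR adjusted p = 0.0186). The Control call was lost without HSVTK GANC replicate 1, Control GANC replicate 2 or any DMSO library (0.0503 to 0.31), and the other without HSVTK GANC replicate 2, Control GANC replicate 2 or either HSVTK DMSO library (0.0508 to 0.16). Both were lost without the filter (0.0914 and 0.0696) and with only the 4 libraries compared (0.0832 and 0.0673), the Control call also with library size only (0.0549) and limma (0.1 and 0.104). Rbbp8, Nbn and Dna2 were called in none of the 5 comparisons. Nbn, like Rad50, had unequal Control GANC libraries, with 35.5 and 25.7 CPM.

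The RecQ helicases unwind joined or stalled DNA. Blm, which dissolves double junctions without crossing over, had 88.2 and 88.6 CPM in HSVTK GANC, 114 and 113 CPM in HSVTK DMSO, 95.4 and 81.1 CPM in Control GANC and 87.2 and 92.2 CPM in Control DMSO. Both HSVTK DMSO libraries stood above the other 6. Recql4, a helicase also needed for starting replication, had the mirror pattern, with 43.8 and 38.9 CPM in HSVTK GANC, 28.4 and 29.2 CPM in HSVTK DMSO, 33.3 and 38.9 CPM in Control GANC and 40.2 and 38.1 CPM in Control DMSO. Its HSVTK DMSO libraries were the lowest of the 8. In the HSVTK cells Blm fell by 0.36 ± 0.07 with GANC (edgeR adjusted p = 0.000353) and Recql4 rose by 0.52 ± 0.09 (edgeR adjusted p = 8.39e-05), both in all 16 alternative settings. Under DMSO alone, HSVTK cells had Blm higher by 0.34 ± 0.07 and Recql4 lower by -0.44 ± 0.09 than Control cells, with edgeR adjusted p of 0.00046 and 0.000368. The difference of responses was -0.34 ± 0.10 for Blm (edgeR adjusted p = 0.015) and 0.64 ± 0.13 for Recql4 (edgeR adjusted p = 0.000484). The Blm difference was lost without Control GANC replicate 1 (0.0683) or Control DMSO replicate 1 (0.0728) and with limma on either FPKM scale (0.115 each). Recql4 shares 9.72% of its exon bases with Mfsd3 on the opposite strand in the GENCODE vM21 annotation, and no source used here gives the strand setting of the counting. Wrn was called nowhere.

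The BRCA mediators bring the recombinase to the resected end. Brca1 forms a ubiquitin ligase with Bard1, Palb2 links it to Brca2, and Brca2 loads the recombinase. Bard1 had 50.7 and 48.7 CPM in HSVTK GANC, 60.7 and 59.5 CPM in HSVTK DMSO, 56.8 and 54.6 CPM in Control GANC and 49.4 and 52.1 CPM in Control DMSO. HSVTK DMSO was the highest group. It fell by 0.27 ± 0.07 with GANC in HSVTK cells (edgeR adjusted p = 0.00641), where it missed the threshold without HSVTK GANC replicate 2 (0.0515) or HSVTK DMSO replicate 1 (0.0591). In Control cells its value was 0.14 ± 0.07, and the difference of -0.41 ± 0.11 (edgeR adjusted p = 0.00476) was kept in all 15 alternative settings. It was also higher in HSVTK DMSO than in Control DMSO by 0.24 ± 0.07 (edgeR adjusted p = 0.0118), lost without either HSVTK DMSO library (0.0915 and 0.0571) or Control DMSO replicate 1 (0.145).

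Brca2 followed the cells more than the drug. It had 81.2 and 77.5 CPM in HSVTK GANC, 73.1 and 64.5 CPM in HSVTK DMSO, 57.5 and 53.2 CPM in Control GANC and 51.5 and 57.3 CPM in Control DMSO. All 4 HSVTK libraries stood above all 4 Control libraries. It was higher in HSVTK GANC than in Control GANC by 0.52 ± 0.08 (edgeR adjusted p = 1.11e-05, all 16 settings) and higher in HSVTK DMSO than in Control DMSO by 0.34 ± 0.08 (edgeR adjusted p = 0.00126), where the second was lost without HSVTK DMSO replicate 1 (0.0681) or Control DMSO replicate 1 (0.0565). Its rise of 0.21 ± 0.08 with GANC in HSVTK cells (edgeR adjusted p = 0.0484) was lost without either HSVTK GANC library, HSVTK DMSO replicate 2 or either Control DMSO library (0.0714 to 0.512), with DESeq2 (0.0555), without the filter (0.0714) and with limma (0.136 and 0.137). Brca1 had 102 and 106 CPM in HSVTK GANC, 114 and 102 CPM in HSVTK DMSO, 111 and 101 CPM in Control GANC and 120 and 128 CPM in Control DMSO, so both Control DMSO libraries were the highest. It was called lower with GANC in Control cells (-0.23 ± 0.07, edgeR adjusted p = 0.0411) and lower in HSVTK DMSO than in Control DMSO (-0.20 ± 0.07, edgeR adjusted p = 0.0271). The Control call was lost without HSVTK GANC replicate 1, Control GANC replicate 2 or any DMSO library (0.0501 to 0.393), the other without HSVTK DMSO replicate 2 or either Control DMSO library (0.0501 to 0.388). Both were lost with library size only (0.0555 and 0.0603) and with limma (0.14 to 0.184), the Control call also without the filter (0.0517) and with only the 4 libraries compared (0.0711). Palb2 was called nowhere.

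The recombinase paralogues Rad51b, Rad51c, Rad51d, Xrcc2 and Xrcc3 build complexes that stabilise the recombinase filament. Rad51b had 6.15 and 5.80 CPM in HSVTK GANC, 8.41 and 8.94 CPM in HSVTK DMSO, 5.0 and 4.74 CPM in Control GANC and 5.08 and 4.96 CPM in Control DMSO. All HSVTK libraries stood above all Control libraries, with HSVTK DMSO highest. Rad51b was higher by 0.79 ± 0.16 in HSVTK DMSO than in Control DMSO (edgeR adjusted p = 0.000225, all 16 settings), the largest rise of the members there. It fell by 0.54 ± 0.15 with GANC in HSVTK cells (edgeR adjusted p = 0.00896), lost without HSVTK GANC replicate 2 (0.0625) or HSVTK DMSO replicate 2 (0.0747). The difference of responses did not pass (-0.50 ± 0.23, edgeR adjusted p = 0.109).

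Rad51c had 20.6 and 22.1 CPM in HSVTK GANC, 22.4 and 24.7 CPM in HSVTK DMSO, 24.8 and 23.4 CPM in Control GANC and 18.7 and 19.8 CPM in Control DMSO. The Control DMSO libraries were the lowest of the 8. With GANC it rose by 0.33 ± 0.10 in Control cells (edgeR adjusted p = 0.0413), a call lost without any one of the Control or HSVTK DMSO libraries (0.0542 to 0.253), with only the 4 libraries compared (0.0702) and with limma (0.103 and 0.114). Its value in HSVTK cells was -0.14 ± 0.10, and the difference was -0.47 ± 0.14 (edgeR adjusted p = 0.015), lost without HSVTK GANC replicate 1, HSVTK DMSO replicate 2 or Control DMSO replicate 1 (0.0549 to 0.0872) and with limma (0.0507 and 0.0566). It was also higher in HSVTK DMSO than in Control DMSO, by 0.29 ± 0.10 (edgeR adjusted p = 0.0248), lost without HSVTK DMSO replicate 2 or either Control DMSO library (0.0559 to 0.236) and without the filter (0.0505). Between HSVTK GANC and Control GANC, Xrcc2 was higher by 0.35 ± 0.10 (edgeR adjusted p = 0.00622) and Rad51d lower by -0.33 ± 0.11 (edgeR adjusted p = 0.0255). Both were lost without HSVTK GANC replicate 2 (0.0771 for Xrcc2 and 0.107 for Rad51d) or Control GANC replicate 1 (0.0525 and 0.083), and Rad51d also without HSVTK GANC replicate 1 (0.0744), with library size only (0.0602) and with limma (0.071 and 0.0754). Xrcc3 was called nowhere.

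Rad52 anneals complementary single strands, and Rad54l and Rad54b are motor proteins that remodel the recombinase filament. Rad52 had 18.7 and 19.6 CPM in HSVTK GANC, 14.1 and 14.6 CPM in HSVTK DMSO, 18.7 and 18.6 CPM in Control GANC and 24.6 and 25.0 CPM in Control DMSO. The Control DMSO libraries were the highest, the HSVTK DMSO libraries the lowest, and the groups given GANC lay between them. Rad52 rose by 0.42 ± 0.10 with GANC in HSVTK cells (edgeR adjusted p = 0.00291) and fell by 0.41 ± 0.10 with it in Control cells (edgeR adjusted p = 0.0102). The difference of 0.83 ± 0.14 (edgeR adjusted p = 7.99e-05) was kept in all 15 settings. The HSVTK call was lost without HSVTK DMSO replicate 1 (0.05). The Control call was lost with limma on either FPKM scale and without Control GANC replicate 2 (0.052) or either Control DMSO library (0.0695 and 0.109). Under DMSO, Rad52 was lower in HSVTK than in Control cells by -0.79 ± 0.10 (edgeR adjusted p = 5.02e-07), and under GANC the value was 0.04 ± 0.10. Rad54l was higher in HSVTK than in Control cells under both agents, by 0.28 ± 0.07 with DMSO (edgeR adjusted p = 0.00343) and 0.22 ± 0.07 with GANC (edgeR adjusted p = 0.0284). The first was lost without HSVTK DMSO replicate 2 (0.0806) or Control DMSO replicate 1 (0.0901), the second without HSVTK GANC replicate 2, Control GANC replicate 2 or any DMSO library (0.0567 to 0.235), without the filter (0.0841) and with only the 4 libraries compared (0.0722). Rad54b, which shares 35.9% of its exon bases with other genes, was called nowhere.

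Junction nucleases cut what the helicases leave. Mus81 is the catalytic partner of Eme1, and Slx4 is the scaffold that holds several nucleases. Eme1 had 49.0 and 53.8 CPM in HSVTK GANC, 36.4 and 35.9 CPM in HSVTK DMSO, 49.6 and 48.7 CPM in Control GANC and 52.5 and 51.2 CPM in Control DMSO. The HSVTK DMSO libraries alone were low. HSVTK GANC overlapped each Control group, and Control GANC lay slightly below Control DMSO. Eme1 rose by 0.51 ± 0.08 with GANC in HSVTK cells (edgeR adjusted p = 1.56e-05), the member with the lowest adjusted p in that comparison. It was lower by -0.52 ± 0.08 in HSVTK DMSO than in Control DMSO (edgeR adjusted p = 6.55e-06), and the difference of responses was 0.59 ± 0.11 (edgeR adjusted p = 0.000224). All 3 calls were kept in every alternative setting. In GENCODE vM21, Eme1 shares 10.7% of its exon bases with Lrrc59 and Mrpl27 on the opposite strand.

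Its partner Mus81 had 8.85 and 8.88 CPM in HSVTK GANC, 7.51 and 8.21 CPM in HSVTK DMSO, 11.6 and 11.8 CPM in Control GANC and 11.5 and 14.9 CPM in Control DMSO. All 4 HSVTK libraries lay below all 4 Control libraries. Mus81 was lower in HSVTK than in Control cells by -0.75 ± 0.14 under DMSO (edgeR adjusted p = 9.41e-05, all 16 settings) and by -0.40 ± 0.14 under GANC (edgeR adjusted p = 0.0316). The second was lost without any one of the GANC libraries (0.056 to 0.115), with DESeq2 (0.068), with library size only (0.0636) and with limma (0.122 and 0.136). Its value for GANC in HSVTK cells was 0.17 ± 0.14. Slx4 had 32.5 and 33.2 CPM in HSVTK GANC, 26.9 and 26.2 CPM in HSVTK DMSO, 27.4 and 31.9 CPM in Control GANC and 28.6 and 27.7 CPM in Control DMSO, so HSVTK DMSO was the lowest group. It rose by 0.31 ± 0.09 with GANC in HSVTK cells (edgeR adjusted p = 0.0134), a call lost when any HSVTK library was left out (0.0553 to 0.122) and with limma on log2(FPKM + 1) (0.0512). Summed over the 3 nuclease genes, the levels were 90.37 and 95.96 CPM in HSVTK GANC, 70.85 and 70.36 CPM in HSVTK DMSO, 88.51 and 92.36 CPM in Control GANC and 92.61 and 93.85 CPM in Control DMSO.

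**Figure D2:**
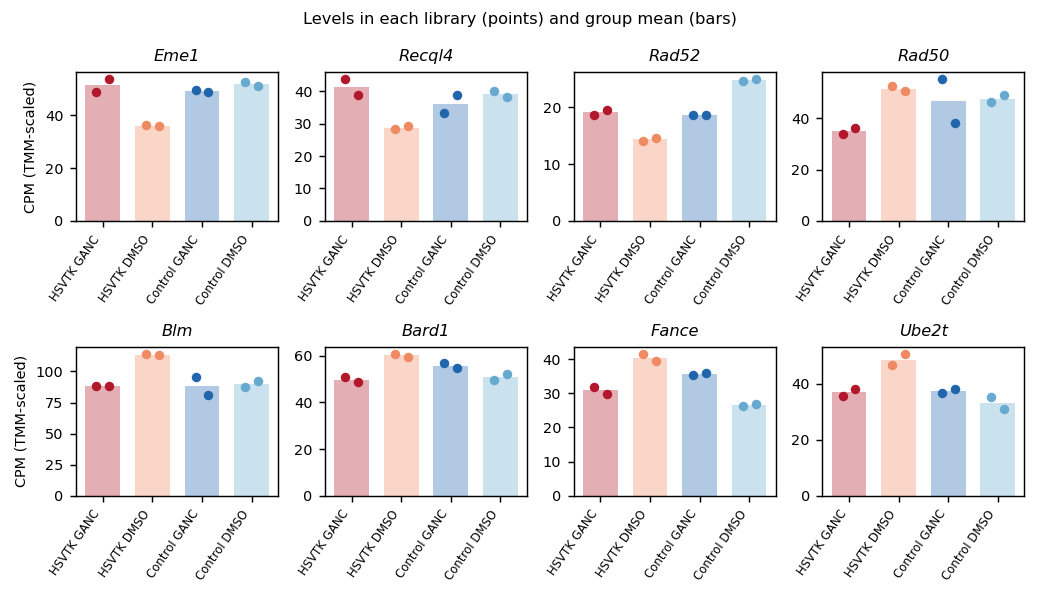
CPM of 8 members in each library (points) with group means (bars), groups from left to right HSVTK GANC, HSVTK DMSO, Control GANC and Control DMSO. Eme1, Recql4 and Rad52 are lowest and Blm, Bard1, Fance and Ube2t highest in HSVTK DMSO, while Rad50 is lowest in HSVTK GANC.

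The next 9 members belong to the Fanconi core complex and its conjugating enzyme. Fance, the subunit that contacts Fancd2, had 31.8 and 29.9 CPM in HSVTK GANC, 41.5 and 39.4 CPM in HSVTK DMSO, 35.4 and 36.0 CPM in Control GANC and 26.4 and 27.0 CPM in Control DMSO. No group overlapped another, with HSVTK DMSO highest and Control DMSO lowest. Fance fell by 0.39 ± 0.09 with GANC in HSVTK cells (edgeR adjusted p = 0.000879) and rose by 0.42 ± 0.09 with it in Control cells (edgeR adjusted p = 0.00303). The difference was -0.81 ± 0.12 (edgeR adjusted p = 1.17e-05). Under DMSO it was higher in HSVTK than in Control cells by 0.60 ± 0.09 (edgeR adjusted p = 2.9e-06), and under GANC the value was -0.21 ± 0.09 (edgeR adjusted p = 0.0708). The 4 calls were kept in every alternative setting.

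Ube2t, which passes ubiquitin to the ligase Fancl, had 35.7 and 38.1 CPM in HSVTK GANC, 46.5 and 50.6 CPM in HSVTK DMSO, 36.8 and 38.0 CPM in Control GANC and 35.2 and 31.0 CPM in Control DMSO. Both HSVTK DMSO libraries stood above the rest. It fell by 0.39 ± 0.09 with GANC in HSVTK cells (edgeR adjusted p = 0.000849), was higher by 0.55 ± 0.09 in HSVTK DMSO than in Control DMSO (edgeR adjusted p = 1.1e-05), and the difference of responses was -0.57 ± 0.12 (edgeR adjusted p = 0.000947). These calls were kept in every alternative setting. Fancl itself was called nowhere. It had 26.0 and 26.2 CPM in HSVTK GANC, 24.5 and 24.7 CPM in HSVTK DMSO, 26.1 and 23.4 CPM in Control GANC and 24.1 and 24.4 CPM in Control DMSO.

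Fancg, a scaffold subunit of the core, had 16.2 and 19.4 CPM in HSVTK GANC, 12.1 and 14.5 CPM in HSVTK DMSO, 15.4 and 15.7 CPM in Control GANC and 16.6 and 13.6 CPM in Control DMSO. It rose by 0.42 ± 0.13 with GANC in HSVTK cells (edgeR adjusted p = 0.0127), lost without HSVTK GANC replicate 2 (0.235) or HSVTK DMSO replicate 1 (0.222) and with limma (0.0564 and 0.0617). Fanca had 24.9 and 21.6 CPM in HSVTK GANC, 26.1 and 28.6 CPM in HSVTK DMSO, 23.4 and 23.9 CPM in Control GANC and 17.9 and 21.9 CPM in Control DMSO. It was higher by 0.46 ± 0.11 in HSVTK DMSO than in Control DMSO (edgeR adjusted p = 0.00122), lost without Control DMSO replicate 1 (0.0726), and its difference of responses was -0.48 ± 0.15 (edgeR adjusted p = 0.0185), lost without HSVTK GANC replicate 2, HSVTK DMSO replicate 2 or Control DMSO replicate 1 (0.0878 to 0.141) and with limma (0.145 and 0.153). Fancb, on the X chromosome, was lower by -0.31 ± 0.12 in HSVTK DMSO than in Control DMSO (edgeR adjusted p = 0.0373), lost without any one of the DMSO libraries (0.0617 to 0.242), with DESeq2 (0.0639), with library size only (0.0601), without the filter (0.0552) and with limma (0.082 and 0.0892). Fancf, the weakest member, had 1.78 and 2.51 CPM in HSVTK GANC and 1.04 and 1.29 CPM in Control GANC. Its fold change of 0.88 ± 0.32 (edgeR adjusted p = 0.0423) was lost without HSVTK GANC replicate 2 (0.348), Control GANC replicate 1 (0.197) or Control GANC replicate 2 (0.0596), with DESeq2 (0.0889), without the filter (0.0514) and with limma (0.0611 and 0.0666). Fancc and Fancm were called nowhere.

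The pair that receives ubiquitin, Fancd2 and Fanci, was called in neither drug comparison. Fancd2 had 86.5 and 91.9 CPM in HSVTK GANC, 85.4 and 83.9 CPM in HSVTK DMSO, 68.6 and 69.5 CPM in Control GANC and 75.7 and 82.1 CPM in Control DMSO. All 4 HSVTK libraries stood above all 4 Control libraries. Under GANC it was higher in HSVTK than in Control cells by 0.37 ± 0.07 (edgeR adjusted p = 0.000188, all 16 settings), while under DMSO the value was 0.10 ± 0.07 (edgeR adjusted p = 0.279). The difference of responses, 0.27 ± 0.10, was called (edgeR adjusted p = 0.0446) but lost whichever library was left out (0.0516 to 0.304), without the filter (0.112) and with limma (0.0685 and 0.0693). Fanci had 76.3 and 90.5 CPM in HSVTK GANC, 77.9 and 73.5 CPM in HSVTK DMSO, 71.8 and 65.5 CPM in Control GANC and 65.3 and 70.7 CPM in Control DMSO. It was higher by 0.28 ± 0.08 in HSVTK GANC than in Control GANC (edgeR adjusted p = 0.00957), lost without HSVTK GANC replicate 2 (0.326) or Control GANC replicate 2 (0.0921).

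Downstream of that pair act Brip1, a helicase that binds BRCA1, and the nuclease Fan1. Brip1 had 16.4 and 18 CPM in HSVTK GANC, 24.3 and 22.5 CPM in HSVTK DMSO, 20.4 and 16.1 CPM in Control GANC and 17.2 and 19.0 CPM in Control DMSO. HSVTK DMSO stood above the other 6 libraries. It fell by 0.44 ± 0.11 with GANC in HSVTK cells (edgeR adjusted p = 0.00395, lost without HSVTK GANC replicate 1 at 0.0581 and with limma at 0.089 and 0.0894), and was higher by 0.37 ± 0.11 in HSVTK DMSO than in Control DMSO (edgeR adjusted p = 0.012, lost without HSVTK DMSO replicate 1 at 0.108 or Control DMSO replicate 1 at 0.13 and with limma at 0.0848 and 0.0864). The difference of responses was -0.46 ± 0.16 (edgeR adjusted p = 0.0368), lost without replicate 1 of any group (0.119 to 0.204), with DESeq2 (0.0583), with library size only (0.0529) and with limma (0.202 each). Fan1 was called nowhere.

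**Figure D3:**
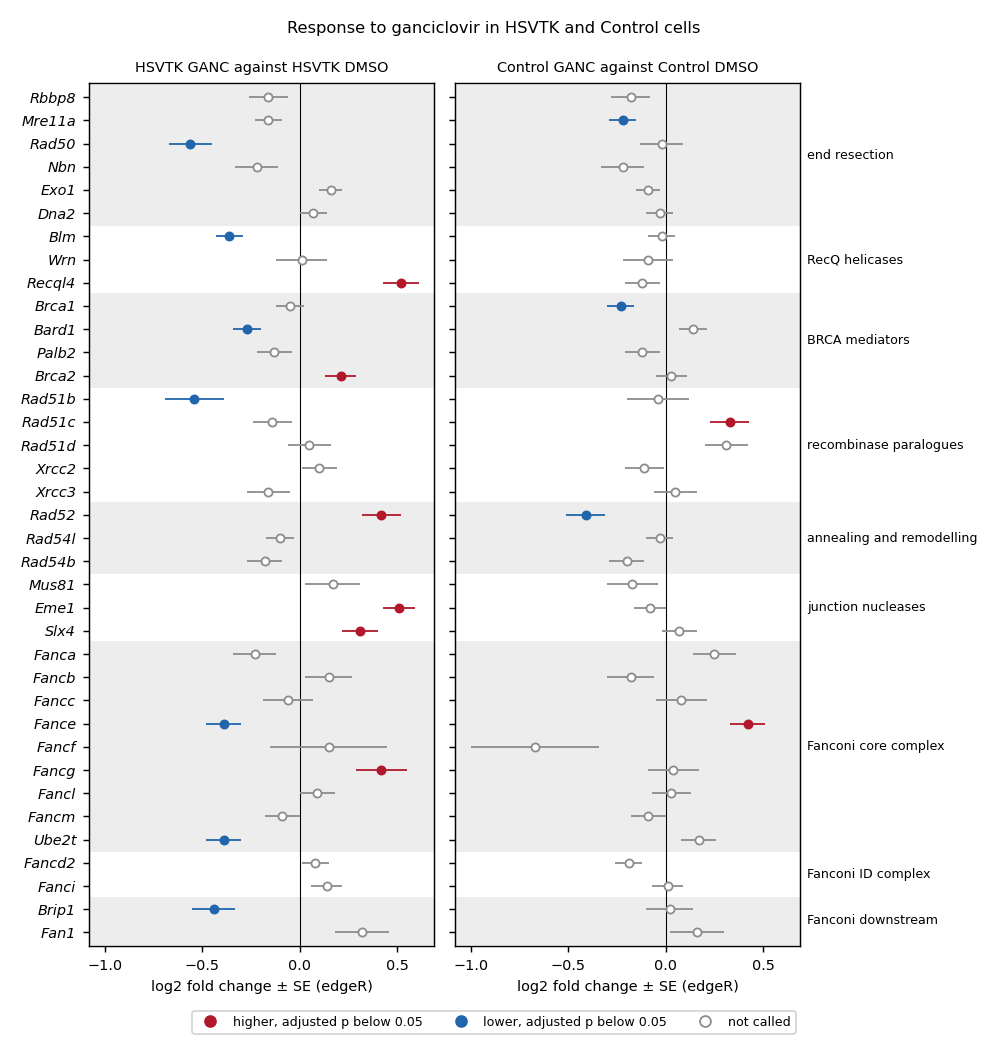
Log2 fold change ± SE from edgeR of each member for GANC against DMSO in HSVTK cells (left) and in Control cells (right), filled where the adjusted p was below 0.05. In HSVTK cells 6 members are higher and 7 lower, in Control cells 2 higher and 3 lower. Rad52 and Fance are called in both with opposite signs, like 654 of the 770 tested genes called in both.

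In Control cells, which serve as the background of the drug, 5 of 37 members were called, 2 higher (Rad51c and Fance) and 3 lower (Rad52, Brca1 and Mre11a), or 13.5%. The share over all tested genes was 8.08% (4.73% higher and 3.35% lower), and 10.6% of genes with a mean of at least 1 CPM. The difference of the responses, HSVTK minus Control, was called for 13 members, 5 positive and 8 negative, against 25.6% of all tested genes (11.6% positive and 14% negative) and 32.1% of those with at least 1 CPM. Here the members' 35.1% lay slightly above the second share. Both responses had opposite signs for 19 of 37 members (51.4%), against 58.5% of all tested genes. The 2 members called in both, Rad52 and Fance, had opposite signs, as had 654 of the 770 tested genes called in both.

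HSVTK and Control cells also differed in the libraries labelled DMSO. Under DMSO 10 members were higher and 7 lower in HSVTK cells, together 45.9%, against 33.7% of all tested genes (16.4% higher and 17.3% lower) and 41.9% of those with a mean of at least 1 CPM. Under GANC 7 members were higher and 3 lower, together 27%, against 26.1% of all tested genes (11.1% higher and 14.9% lower) and 32.4% of those with at least 1 CPM. Both HSVTK DMSO libraries lay beyond the other 6 for 15 members (40.5%, against 29.8% of all tested genes). For such counts no share was computed among genes with at least 1 CPM, a limit every member passed. The HSVTK DMSO libraries were above for Mre11a, Blm, Bard1, Rad51b, Rad54l, Fanca, Fance, Ube2t and Brip1. They were below for Exo1, Recql4, Rad52, Mus81, Eme1 and Slx4. The same count was 6 (16.2%, against 23% of all genes) for HSVTK GANC, 4 (10.8%, against 12.2%) for Control GANC and 7 (18.9%, against 18.4%) for Control DMSO. The comparison of GANC with DMSO in HSVTK cells and that of HSVTK with Control cells under DMSO share the HSVTK DMSO libraries, so their values with opposite sign for the 9 members called with opposite signs in both (Blm, Recql4, Bard1, Rad51b, Rad52, Eme1, Fance, Ube2t and Brip1) are not independent. Between HSVTK GANC and Control GANC none of these 9 was called. How often all tested genes showed either pattern was not computed, so neither sets the members apart. Under GANC the values were 0.29 ± 0.16 for Rad51b, -0.16 ± 0.07 for Bard1, 0.00 ± 0.07 for Blm, 0.20 ± 0.09 for Recql4 and 0.04 ± 0.10 for Rad52. They were 0.07 ± 0.08 for Eme1, -0.21 ± 0.09 for Fance, -0.02 ± 0.09 for Ube2t and -0.09 ± 0.12 for Brip1.

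**Figure D4:**
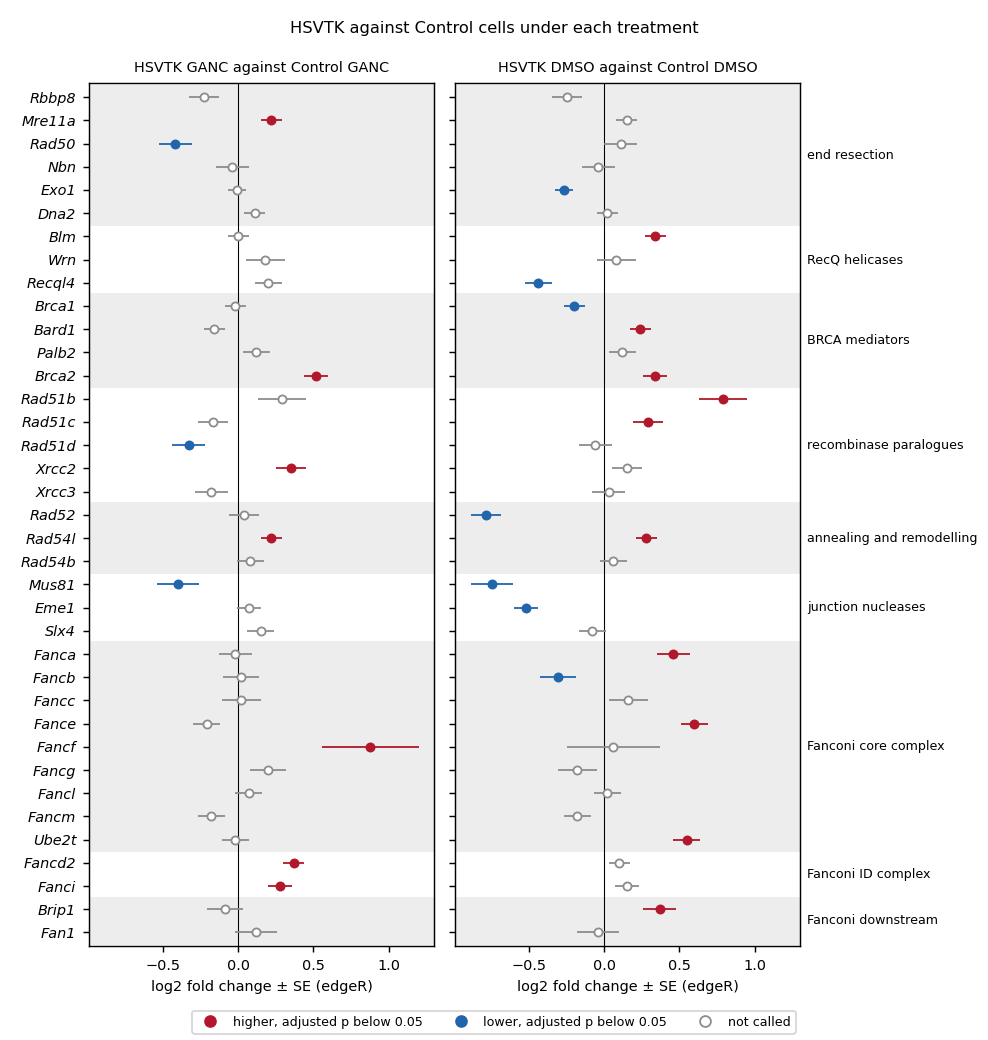
Log2 fold change ± SE from edgeR of each member for HSVTK against Control cells under GANC (left) and under DMSO (right), filled where the adjusted p was below 0.05. Under GANC 7 members are higher and 3 lower, under DMSO 10 higher and 7 lower, with Brca2 and Rad54l higher and Mus81 lower in both panels.

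Of the 8 members whose call in the HSVTK response or in the difference of responses was kept in every fit that left out a library, 6 have an entry in the RefSeq promoter table (build GRCm38.p6), and 27 of 37 members have one. The 250 bases before the start are shown for these 6 to set the motifs of the cell-cycle regulators beside the calls. They lie at chr7:80534999-80535248 (minus strand) for Blm, chr1:71102973-71103222 (minus strand) for Bard1, chr17:28313280-28313529 (plus strand) for Fance, chr1:134962315-134962564 (plus strand) for Ube2t, chr6:119902448-119902697 (plus strand) for Rad52 and chr11:94653744-94653993 (minus strand) for Eme1. Capitals mark CCAAT (or ATTGG, its reverse complement), the CHR element TTTGAA and the E2F letters TTTCCCGC.
Blm: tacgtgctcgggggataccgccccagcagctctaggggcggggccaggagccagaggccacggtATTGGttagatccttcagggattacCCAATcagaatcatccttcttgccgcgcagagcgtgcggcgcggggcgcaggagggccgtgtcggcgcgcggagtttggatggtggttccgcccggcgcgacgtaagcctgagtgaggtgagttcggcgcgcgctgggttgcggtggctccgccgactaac
Bard1: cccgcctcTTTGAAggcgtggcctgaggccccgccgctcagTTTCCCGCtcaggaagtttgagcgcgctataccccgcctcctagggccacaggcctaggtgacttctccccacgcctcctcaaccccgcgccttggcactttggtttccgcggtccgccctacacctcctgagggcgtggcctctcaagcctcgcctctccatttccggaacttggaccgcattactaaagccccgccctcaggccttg
Fance: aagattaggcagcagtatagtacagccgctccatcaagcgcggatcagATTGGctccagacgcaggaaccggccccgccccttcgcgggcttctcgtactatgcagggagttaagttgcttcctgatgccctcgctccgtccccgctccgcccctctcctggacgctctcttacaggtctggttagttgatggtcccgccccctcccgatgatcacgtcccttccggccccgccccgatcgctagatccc
Ube2t: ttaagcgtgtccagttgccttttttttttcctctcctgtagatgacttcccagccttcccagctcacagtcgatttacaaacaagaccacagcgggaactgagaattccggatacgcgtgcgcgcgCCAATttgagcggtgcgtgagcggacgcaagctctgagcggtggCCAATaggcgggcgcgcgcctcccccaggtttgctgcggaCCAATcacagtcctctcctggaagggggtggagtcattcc
Rad52: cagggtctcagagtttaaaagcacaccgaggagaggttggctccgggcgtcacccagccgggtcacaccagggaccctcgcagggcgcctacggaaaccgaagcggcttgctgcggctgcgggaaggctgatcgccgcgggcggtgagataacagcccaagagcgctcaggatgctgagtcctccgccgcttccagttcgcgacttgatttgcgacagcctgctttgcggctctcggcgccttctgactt
Eme1: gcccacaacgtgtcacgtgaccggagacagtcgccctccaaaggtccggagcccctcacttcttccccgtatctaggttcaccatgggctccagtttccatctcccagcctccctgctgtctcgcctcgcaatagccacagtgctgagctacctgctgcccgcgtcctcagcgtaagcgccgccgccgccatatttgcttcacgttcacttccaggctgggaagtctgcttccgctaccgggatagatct

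Blm holds CCAAT at 186 and 161 bases before the start, Fance at 202, and Ube2t at 124, 80 and 40. Bard1 holds an E2F motif 209 and a CHR element 242 bases before the start. Rad52 and Eme1 hold none of the letters in this window. On either strand, CCAAT occurred in 15 of 27 member promoters (55.6%) and in 34.5% of the 27025 genes in the table. The E2F motif, searched as TTTGGCGC, TTTCGCGC, TTTCCCGC and TTTGCCGC, was in 3 of 27 (11.1%: Bard1, Brca2 and Fancg), against 1.91% of the 27025. The CHR element was in 1 of 27 (3.7%), against 16.3%. Only the first start listed for each gene was searched. The 27025 genes were not limited to those expressed here, so these shares do not compare the members with expressed genes. The CCAAT and CHR letters do not overlap with the E2F letters in these promoters.

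Among 46 further genes of recombination and the Fanconi pathway, 7 were higher and 2 lower with GANC in HSVTK cells (19.6%, against 28.5% of all tested genes and 35.4% of those with at least 1 CPM). They included the helicase Rtel1 (0.60 ± 0.07, edgeR adjusted p = 1.27e-07), the crosslink nuclease subunit Ercc4 (0.80 ± 0.10, edgeR adjusted p = 3.84e-07), the core-associated Faap100 (0.51 ± 0.11, edgeR adjusted p = 0.00111) and the helicase Recql5 (0.41 ± 0.10, edgeR adjusted p = 0.00235). These 4 calls were kept in all 16 settings. In Control cells 6.52% were called by edgeR, against 8.08% of all tested genes and 10.6% of those with at least 1 CPM. There 0 were higher and 3 lower (Atrx, Rtel1 and Bod1l), with 7 of the 46 at an unadjusted p below 0.05. All 3 were lost with limma on both FPKM scales and without Control DMSO replicate 2 (0.0856, 0.22 and 0.19), Atrx and Bod1l also without Control GANC replicate 2 (0.0565 and 0.143) and Bod1l without Control DMSO replicate 1 (0.081). Under DMSO, 8 were higher and 14 lower in HSVTK than in Control cells (47.8%, against 33.7% of all tested genes and 41.9% of those with at least 1 CPM), led by the chromatin remodeller Atrx (-0.63 ± 0.07, edgeR adjusted p = 7.67e-08) and Rtel1 (-0.54 ± 0.07, edgeR adjusted p = 4.09e-07). The median over the 46 was 0.03 with GANC in HSVTK cells and -0.01 between the cells under DMSO.

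The 8 resection antagonists split. For the drug in HSVTK cells 50% of them were called, against 28.5% of all tested genes and 35.4% of those with at least 1 CPM. Trp53bp1 (53BP1), which shields broken ends, was lower in HSVTK than in Control cells under GANC (-1.29 ± 0.07, edgeR adjusted p = 4.33e-14) and under DMSO (-1.36 ± 0.07, edgeR adjusted p = 9.35e-15), a larger change than that of any member. With GANC in HSVTK cells the shieldin subunits Shld1 (0.75 ± 0.14, edgeR adjusted p = 0.000147) and Shld3 (0.70 ± 0.18, edgeR adjusted p = 0.00424) rose, while Mad2l2 fell by 0.49 ± 0.10 (edgeR adjusted p = 0.000582) and Paxip1 fell by 0.22 ± 0.07 (edgeR adjusted p = 0.0142). The Paxip1 call was lost with limma on both FPKM scales (0.0767 and 0.0787), without HSVTK GANC replicate 2 (0.0927) and without either HSVTK DMSO library (0.109 and 0.0624), while the others named here were kept in all 16 settings. Of 11 damage-signalling genes 45.5% were called in that comparison, against the same 28.5% and 35.4%. The break kinase Atm rose by 0.62 ± 0.08 (edgeR adjusted p = 9.78e-07). Another 4 fell, including the replication checkpoint kinase Chek1 by 0.29 ± 0.07 (edgeR adjusted p = 0.00132). Of 14 tested meiotic recombination genes 1 was higher and 7 lower there (57.1%, against 28.5% and 35.4%). The BRCA2-binding Hsf2bp fell by 0.34 ± 0.07 (edgeR adjusted p = 0.000325).

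Cell-cycle and p53 genes were examined in the same samples. With GANC in HSVTK cells, 2 of 30 G1/S genes were higher and 8 lower (33.3%, against 28.5% of all tested genes and 35.4% of those with at least 1 CPM), and 0 of 30 G2/M genes were higher and 17 lower by edgeR (56.7%, 19 of the 30 at an unadjusted p below 0.05). In Control cells GANC came with 4 G1/S genes higher and 0 lower (13.3%) and 0 G2/M genes higher and 5 lower (16.7%). Of the p53 targets there, 0 were higher and 6 lower (24%). The shares in Control cells were 8.08% of all tested genes and 10.6% of those with at least 1 CPM. Summed G2/M levels were 5193 and 5239 CPM in HSVTK GANC, 6008 and 5912 CPM in HSVTK DMSO, 5751 and 5626 CPM in Control GANC and 5956 and 6016 CPM in Control DMSO. Of 25 p53 targets 13 were higher and 0 lower with GANC in HSVTK cells (52%). In HSVTK DMSO 3 were higher and 16 lower than in Control DMSO (76%). The shares under DMSO were 33.7% of all tested genes and 41.9% of those with at least 1 CPM. Summed p53 target levels were 1924 and 1922 CPM in HSVTK GANC, 1491 and 1543 CPM in HSVTK DMSO, 1878 and 1878 CPM in Control GANC and 2002 and 1987 CPM in Control DMSO, with HSVTK DMSO apart from the other 3 groups. Over the 37 members the sums were 1451 and 1511 CPM in HSVTK GANC, 1527 and 1509 CPM in HSVTK DMSO, 1466 and 1363 CPM in Control GANC and 1441 and 1493 CPM in Control DMSO, so that HSVTK DMSO lay above both Control groups and every other pair of groups overlapped. The part of the cell cycle or of p53 in the members' changes was not tested.

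**Figure D5:**
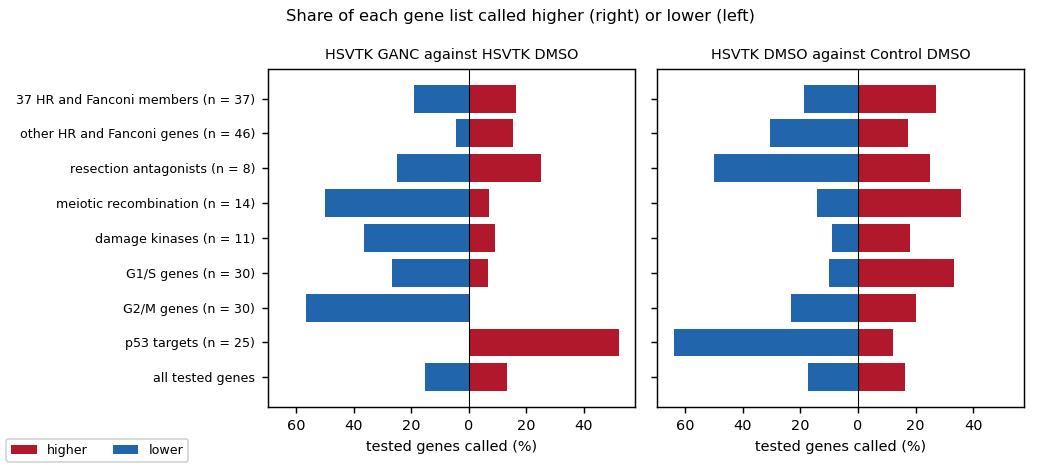
Percent of the tested genes of each list called higher (right, red) or lower (left, blue) by edgeR for HSVTK GANC against HSVTK DMSO (left panel) and HSVTK DMSO against Control DMSO (right panel). The 37 members (6 higher and 7 lower in the left panel) are split between both directions, while 17 of 30 G2/M genes are lower and 13 of 25 p53 targets higher in the left panel.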

How the data were processed

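RNA-seq of mouse embryonic stem cells was available for 8 libraries, grouped by the cell group and treatment in the labels. The labels name a VAHTS Universal V6 library kit, and the submitters' processing notes list the build GRCm39 and the tools featureCounts 2.0.1, HISAT2 2.1.0, DESeq2 1.40.2 and fastp 0.23.2. The annotation release, the strand setting and how multiply matching reads were counted are not given here. The authors deposited raw counts per gene and FPKM. All 456080 deposited FPKM values equalled counts divided by length and by the library's assigned counts within 4.9e-06. The deposited lengths of 36 of 37 members equalled the exon bases of GENCODE vM21.

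The deposited counts were fitted with edgeR 4.0.16 in R 4.3.3 (TMM, filterByExpr by group with a minimum count of 10, a mean per group over all 8 libraries, 4 residual degrees of freedom, biological coefficient of variation 6.31%). SE is the absolute log2 fold change over the square root of F. Depth was 29704460 to 34184475 counts. Replicates of a group exceeded counting noise (chi-square per degree of freedom 3.578 to 8.391). No label says whether they were separate cultures. The p-values therefore reflect library-to-library spread alone, possibly technical. Libraries of the same number did not deviate together (correlations of -0.0319 to 0.0145). Alternatives were DESeq2 1.42.0, RLE factors, library size only, no filter, only the 4 libraries compared, the replicate number as a block, limma 3.58.1 on log2(FPKM + 1) and log2(FPKM + 0.1), and leaving out each library. The code was tested on simulated counts.

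All members could be named, with full statistics for those called at least once. Of other lists, up to 4 called genes with the lowest adjusted p in a comparison were named. Promoters were limited to members with a call kept in every left-out-library fit. The members and lists were chosen with earlier results of these data known, and the limit of 1 CPM for the second background share was set after the values were seen. Exon overlap used GENCODE vM21 (GRCm38), so no coordinates of it are printed.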

Additional observations from a re-analysis of the deposited data

Results flagged for a closer look

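For 13 members the response to GANC in HSVTK cells differed from that in Control cells by the interaction term of the edgeR fit (adjusted p below 0.05). These were 35.1% of the members, against 25.6% of all tested genes and 32.1% of those with a mean of at least 1 CPM. The difference, HSVTK minus Control on the log2 scale, was positive for Rad52 (0.83), Recql4 (0.64), Eme1 (0.59), Fancd2 (0.27) and Exo1 (0.26). It was negative for Fance (-0.81), Ube2t (-0.57), Rad50 (-0.53), Fanca (-0.48), Rad51c (-0.47), Brip1 (-0.46), Bard1 (-0.41) and Blm (-0.34). Rad52 and Fance were called in both responses, with opposite signs. The same held for 654 of the 770 tested genes called in both. Fanca, Fancd2 and Exo1 were called in neither response on its own. The differences of Recql4, Bard1, Rad52, Eme1, Fance and Ube2t were kept in all 15 alternative settings.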

How the results depend on the processing

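No called value of a member changed sign under any alternative. The number of members called for GANC in HSVTK cells was 13 and came to 10 to 15 with other tools, scalings, filters or sample sets and to between 8 (without HSVTK GANC replicate 2) and 16 with 1 library left out. For HSVTK against Control cells under DMSO it was 17, with 14 to 21 in those settings and 9 (without Control DMSO replicate 1) to 19 with a library left out. The Control response was the least stable: of 5 members, 3 were called with library size only, 3 without the filter, 3 with the replicate block, 2 with only the 4 libraries compared, 1 with limma on either FPKM scale, and 1 to 6 with a library left out, 1 each without Control GANC replicate 2, Control DMSO replicate 1 or Control DMSO replicate 2, 2 each without HSVTK DMSO replicate 1 or 2, and 3 without HSVTK GANC replicate 1. Fance was kept in every setting. For the difference of responses the count of 13 became 7 with limma on either FPKM scale, and 7 (without Control DMSO replicate 1), 8 (without Control GANC replicate 1) up to 11 with a library left out. Under GANC the 10 between HSVTK and Control cells became 6 with limma on either scale, and 3 (without HSVTK GANC replicate 2), 5 (without Control GANC replicate 1) up to 9 with a library left out. Where a left-out library leaves its group with 1, that library is assumed to vary like the other groups. With limma on either scale the share of all tested genes was 19.4% and 19.2% for the difference (25.6% in the main fit). It was 20.8% and 20.3% under GANC (26.1%) and 28.8% and 28.7% under DMSO (33.7%). For GANC in HSVTK cells it was 22.4% and 21.6% (28.5%). The causes were not tested. With the replicate block, there were 12 for GANC in HSVTK cells, 11 for the difference, 17 under DMSO and 10 under GANC. The block ended the calls of Brca2 for GANC in HSVTK cells (0.0561), Mre11a (0.0611) and Brca1 (0.0515) in Control cells, and Exo1 (0.0511) and Fancd2 (0.0571) for the difference. The libraries of the same number share only a number.

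With library size only, the calls under DMSO split into 11 higher and 5 lower, and those under GANC into 8 and 1. Values not called did change sign, 7 of 384 for GANC in HSVTK cells, 24 of 512 in Control cells, 28 of 360 for the difference, 11 of 320 under DMSO and 39 of 432 under GANC. Depth limits Fancf, at 1.05 FPKM, whose SE was 0.30 to 0.33 between groups and 0.45 for the difference of responses. In GENCODE vM21, 18 members share exon bases with another gene, each with a gene on the opposite strand, and 8 share over 10%.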
